A study of Mus musculus with 12 samples.

Results

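The 10 genes described here store iron, carry it into and out of the cell, sense it, or bind other metals: Ftl1, Fth1, Tfrc, Slc11a2, Slc40a1, Aco1, Ireb2, Mt1, Mt2 and Hmox1. They were taken by symbol from a table of 12516 genes, and all 10 were listed in it and passed the filter on low values. The RNA came from sorted Oct4-positive germ cells, each library from 1 female mouse embryo at embryonic day 13.5. In 6 embryos the mother had vitamin C withdrawn over the first weeks of gestation, and in 6 the mother was supplied with it at a physiological level. All 12 embryos, those of supplied mothers included, were Gulo-/- on a C57BL/6 background, so they lacked the last enzyme of vitamin C synthesis and depended on the diet for it. Values are normalized log2 expression, and the sequencing depth of each library is unknown. Each diet has embryos with title numbers 1 to 4, and numbers 1 and 4 hold 2 embryos per diet. The labels do not say whether embryos of a number are litter mates.

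Cells take up iron bound to transferrin through the receptor encoded by Tfrc, move it into the cytosol with the transporter of Slc11a2, store the surplus in shells of ferritin heavy and light chains (Fth1 and Ftl1), and export it through ferroportin (Slc40a1). Iron regulatory proteins (Aco1 and Ireb2) bind hairpins in these mRNAs when iron is scarce, which blocks translation of ferritin and ferroportin and stabilises the Tfrc mRNA. Metallothioneins (Mt1 and Mt2) are small cysteine-rich proteins that bind zinc and copper, and haem oxygenase (Hmox1) frees iron from haem. Vitamin C keeps iron in its reduced form, the form used by the Tet and Jumonji dioxygenases of the germline.

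The hairpins that the regulatory proteins bind are shown first because they sort the genes into groups. The search asked for a C bulge, 5 paired bases on each side of a loop of CAGTGN without a G at its end, and at least 4 of 6 pairs below the bulge, with G-T pairs allowed. In the GENCODE M21 transcripts of build GRCm38, a match in the 5′ untranslated region was found in 7 of 21877 protein-coding genes (0.032%) and in the 3′ untranslated region in 11 (0.0503%). Ftl1, Fth1 and Slc40a1 had 1 match each in the 5′ region, and Tfrc had 4 in the 3′ region. Capitals mark the bulged C and the loop, and all sequences are given on the strand of the mRNA:
Ftl1, chr7:45459779-45459807, minus strand: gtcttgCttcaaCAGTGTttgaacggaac
Fth1, chr19:9982732-9982760, plus strand: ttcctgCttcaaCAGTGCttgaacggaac
Slc40a1, chr1:45925465-45925493, minus strand: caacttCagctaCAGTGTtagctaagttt
Tfrc, chr16:32631219-32631247, plus strand: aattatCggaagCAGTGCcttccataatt
Tfrc, chr16:32631598-32631626, plus strand: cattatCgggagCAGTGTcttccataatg
Tfrc, chr16:32631663-32631691, plus strand: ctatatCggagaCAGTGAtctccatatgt
Tfrc, chr16:32631710-32631738, plus strand: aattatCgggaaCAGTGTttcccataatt
No match with these letters was found in an untranslated region of Slc11a2. Binding to these hairpins and translation were not measured here.

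Of the 10 genes, 3 were higher in germ cells of withdrawn embryos, namely the metallothioneins Mt2 and Mt1 and the ferritin light chain Ftl1, and 0 were lower. The background among all 12432 genes was 6.22% called higher and 7.75% called lower, 14.0% in all. The call was an adjusted p below 0.05 in limma with Benjamini-Hochberg adjustment over all genes tested, and the genes were chosen with earlier results of these data known. The median log2 fold change (withdrawn minus supplied) of the 10 was 0.06, with 6 positive and 4 negative, against -0.01 over all genes tested. The groups did not overlap for 1 of the 10, Mt2, where this held for 4.49% of all genes, 2.15% higher and 2.34% lower in withdrawn embryos. In such bulk samples, fewer cells of a type and less RNA per cell cannot be told apart.

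**Figure D1:**
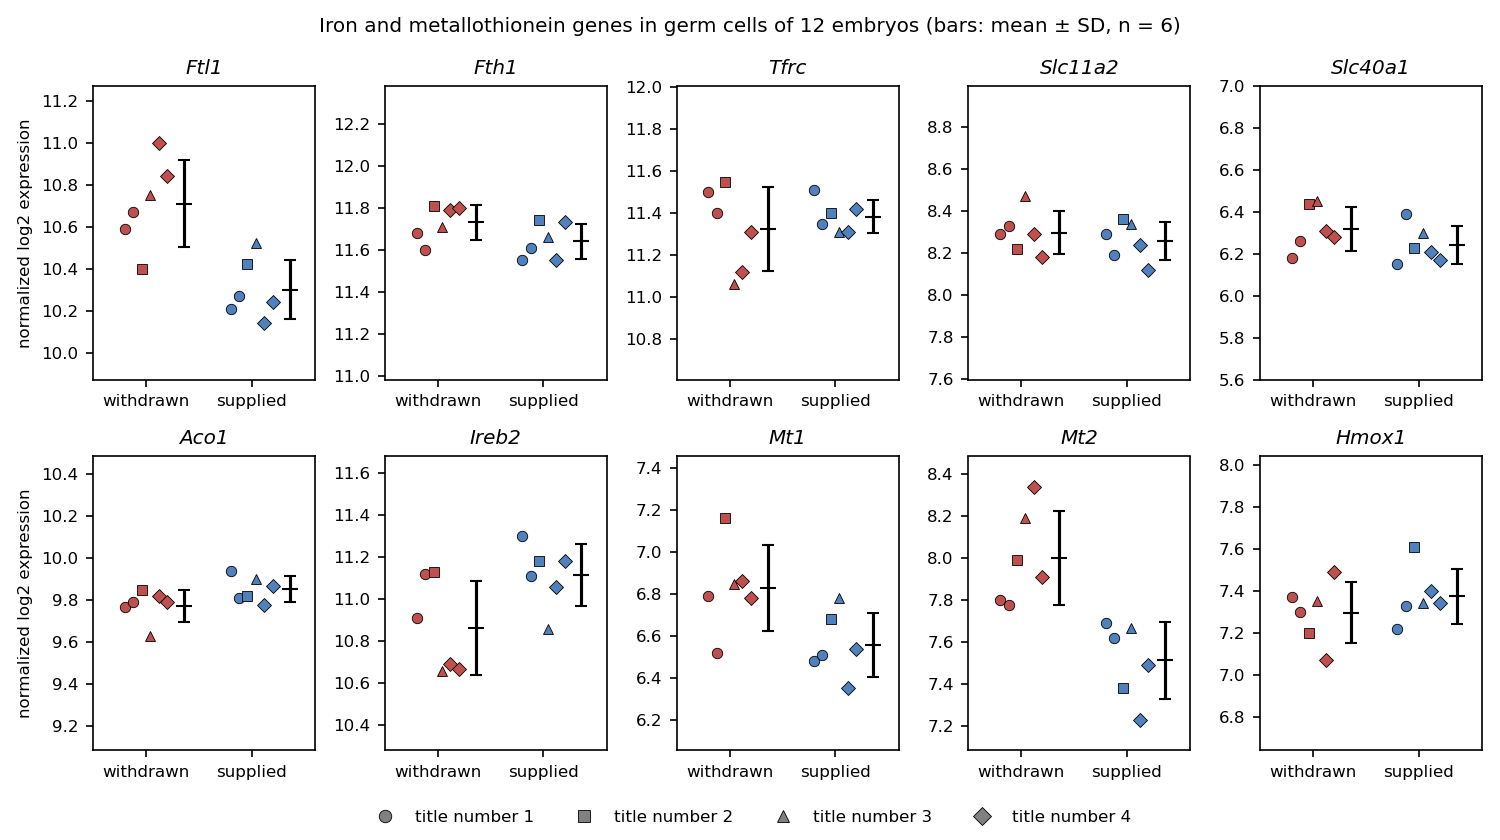
Normalized log2 expression (y axis) of each gene in the 6 withdrawn and 6 supplied embryos, with symbols for the title number and bars for the mean and SD. Each panel spans the same range of log2 units. All withdrawn embryos lie above all supplied ones for Mt2, whereas the groups overlap for the other 9 genes.

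**Figure D2:**
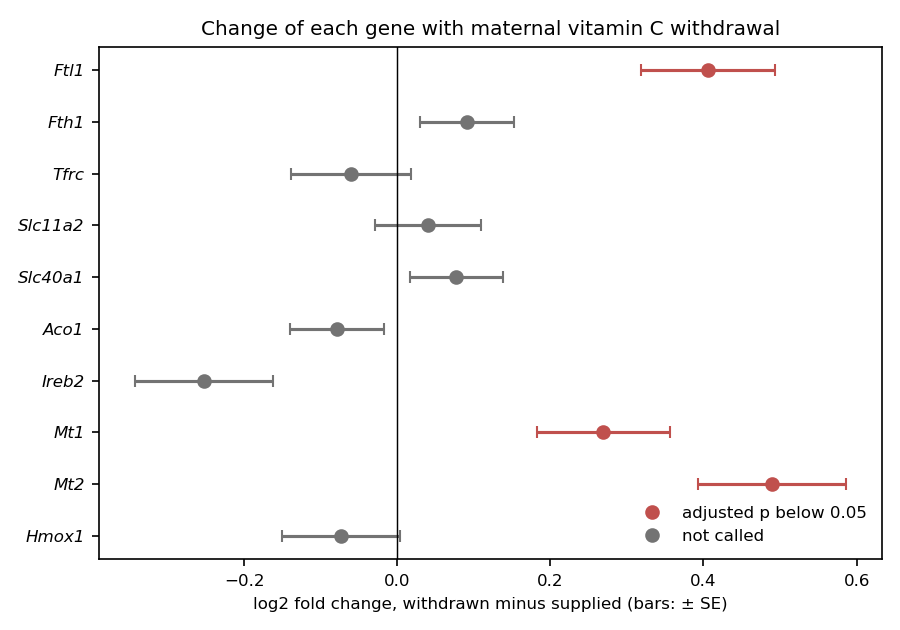
Log2 fold change of each gene (withdrawn minus supplied, x axis) with its moderated SE. Mt2 (0.49), Ftl1 (0.41) and Mt1 (0.27) were called higher, and Ireb2 (-0.25) was the most negative without being called.

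Of the ferritin chains, which store iron, only the light chain passed the test. Ftl1, which helps form the iron core inside the shell, had a lowest value of 10.40, a median of 10.71 and a highest value of 11.00 in withdrawn embryos, against 10.14, 10.26 and 10.52 in supplied embryos. Withdrawn replicates 5 and 6 were the highest, and 5 of the 6 withdrawn embryos lay above every supplied one. Withdrawn replicate 3 (10.40) lay below supplied replicates 3 (10.42) and 4 (10.52), so the groups overlapped. The log2 fold change was 0.41 (SE 0.09, limma adjusted p = 0.00608), or 1.32-fold higher in withdrawn embryos. The call was lost in 4 of 27 alternatives, among them the exact permutation test per gene (adjusted p = 0.0692) and the fit with embryos of a number and diet averaged (adjusted p = 0.0812).

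Fth1, the heavy chain, oxidises iron for storage. Its values were 11.60, 11.75 and 11.81 (lowest, median, highest) in withdrawn embryos, against 11.55, 11.63 and 11.74 in supplied embryos. The ranges overlapped for most embryos, although 3 withdrawn embryos exceeded the highest supplied one. The change of 0.09 (SE 0.06) did not pass the test (limma adjusted p = 0.331), and its 95% confidence interval ran from -0.04 to 0.22. The within-embryo difference of Ftl1 minus Fth1 was -1.03 ± 0.21 in withdrawn and -1.34 ± 0.12 in supplied embryos (SD, n = 6 each), a shift of 0.31. An exact two-sided permutation test gave p = 0.0195 for this shift. Adjusted over the 3 pairs compared, it was 0.0584 in the same exact permutation test, so the chains were not shown to change unequally. Ftl1 and Fth1 have processed copies elsewhere in the genome, and reads may be divided among them. How reads were assigned to such copies was not tested.

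Uptake and export did not pass the test. Tfrc, the transferrin receptor, had 11.06, 11.36 and 11.55 in withdrawn embryos, against 11.31, 11.37 and 11.51 in supplied embryos (lowest, median, highest). Withdrawn embryos were more spread, with an SD of 0.20 against 0.08 in supplied embryos, and withdrawn replicates 4, 5 and 6 were the lowest of them. The log2 fold change of Tfrc was -0.06 (SE 0.08, limma adjusted p = 0.646), with a 95% interval from -0.22 to 0.10. Slc11a2, which passes iron from the endosome to the cytosol, differed by 0.04 (SE 0.07, 95% interval -0.10 to 0.18). The exporter Slc40a1 differed by 0.08 (SE 0.06, 95% interval -0.05 to 0.20), at values from 6.18 to 6.45 in withdrawn and from 6.15 to 6.39 in supplied embryos. Its values lay in the lower part of the table, where fold changes may be understated. Those of Mt1 and Hmox1, and the supplied values of Mt2, also lay below the median of all values, 8.11. The withdrawn values of Mt2 ran from 7.78 to 8.34, and their median, 7.95, lay below 8.11 too.

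The 2 iron regulatory proteins had negative fold changes that did not pass. Ireb2, which is degraded when iron is plentiful, had 10.66, 10.80 and 11.13 in withdrawn embryos, against 10.86, 11.14 and 11.30 in supplied embryos. Withdrawn replicates 4, 5 and 6 (10.66 to 10.69) lay below every supplied embryo, while the other 3 withdrawn embryos lay among the supplied ones. The log2 fold change was -0.25 (SE 0.09, 95% interval -0.44 to -0.07), with a limma adjusted p = 0.0630. Quantile normalization took it past the threshold (limma adjusted p = 0.0298), as did leaving out supplied replicate 4 (limma adjusted p = 0.0206), withdrawn replicate 2 (0.0347) or withdrawn replicate 3 (0.0255). It did not pass with a random effect of number and diet (limma adjusted p = 0.120) or with such embryos averaged (limma adjusted p = 0.229). Without title number 4 the change was -0.16 (limma adjusted p = 0.464).

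Aco1, a cytosolic aconitase that binds the hairpins once it has lost its iron-sulphur cluster, differed by -0.08 (SE 0.06, limma adjusted p = 0.414). All 6 withdrawn embryos lay below the supplied mean of 9.85, at 9.63 to 9.85, against 9.78 to 9.94 in supplied embryos. The shift of Ireb2 minus Aco1 was -0.17 and did not pass (exact permutation p = 0.115, also after adjustment over the 3 pairs). Hmox1 had 7.07, 7.33 and 7.49 in withdrawn embryos, against 7.22, 7.34 and 7.61 in supplied embryos. Its change of -0.07 (SE 0.08, limma adjusted p = 0.555) was smaller than the spread within either diet.

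Both metallothioneins were higher in withdrawn embryos. Mt2 had 7.78, 7.95 and 8.34 (lowest, median, highest) in withdrawn embryos, against 7.23, 7.56 and 7.69 in supplied embryos. The lowest withdrawn embryo, replicate 2, lay just above the highest supplied one, replicate 1. The log2 fold change was 0.49 (SE 0.10, limma adjusted p = 0.00392), or 1.40-fold higher, and exceeded in size that of 99.0% of all genes tested.

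Mt1 had 6.52, 6.82 and 7.16 in withdrawn embryos, against 6.35, 6.53 and 6.78 in supplied embryos. Withdrawn replicate 3 (7.16) was the highest, and withdrawn replicate 2 (6.52) lay among the supplied embryos. The log2 fold change was 0.27 (SE 0.09, limma adjusted p = 0.0406), or 1.21-fold higher. This call was lost in 17 of 27 alternatives, and over all 27 its adjusted p ranged from 0.0145 to 0.322. It was lost without supplied replicate 1, 2, 5 or 6 and without withdrawn replicate 1, 3, 4, 5 or 6. The shift of Mt2 minus Mt1 was 0.22 and did not pass (exact permutation p = 0.0996, or 0.115 adjusted over the 3 pairs).

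Mt1 and Mt2 are neighbours on chromosome 8, with annotated starts 6471 bases apart. They are induced by metals through the factor Mtf1, which binds metal response elements in their promoters, so these are shown. The core was searched as TGCACNC or TGCGCNC on both strands in RefSeq promoters of build GRCm38.p6, from 250 bases before to 50 after the annotated start. Mt2 held 4 matches and Mt1 held 3, where 0.517% of 32851 promoters held 4 or more and 1.97% held 3 or more. Of the matches of Mt2, 3 lay before its annotated start and 1 after it, at chr8:94172622-94172628 (not printed below). Of the others with a promoter, Tfrc held 2 overlapping matches in 1 of its promoters, Aco1 held 1, and Ftl1, Fth1 and Ireb2 held 0, where 25.7% of promoters held at least 1. Capitals mark the core in the 250 bases before each start, on the plus strand:
Mt2, chr8:94172368-94172617: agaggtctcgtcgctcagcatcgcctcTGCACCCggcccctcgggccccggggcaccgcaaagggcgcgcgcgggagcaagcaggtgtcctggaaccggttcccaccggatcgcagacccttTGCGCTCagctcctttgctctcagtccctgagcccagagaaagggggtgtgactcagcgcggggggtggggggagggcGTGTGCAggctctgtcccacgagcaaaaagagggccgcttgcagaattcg
Mt1, chr8:94178839-94179088: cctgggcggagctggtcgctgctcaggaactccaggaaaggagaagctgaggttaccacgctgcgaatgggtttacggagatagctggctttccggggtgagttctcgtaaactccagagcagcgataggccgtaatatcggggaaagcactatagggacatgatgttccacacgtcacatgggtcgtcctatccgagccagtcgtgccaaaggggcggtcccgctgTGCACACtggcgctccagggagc
The other 2 matches of Mt1 lie just after its start, at chr8:94179091-94179115: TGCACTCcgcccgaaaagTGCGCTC
Of the antioxidant response element core TGACNNNGC, Mt2 held 1 match in the searched window, at position -79 from the annotated start. Mt1, Ftl1, Fth1, Tfrc, Aco1 and Ireb2 held 0 in that window, where 12.4% of promoters held at least 1. Sites of either core outside the window were not searched, so these counts do not cover whole promoters. Whether the annotated starts are those used in these cells was not tested. The windows and positions were counted from the annotated starts, so a match placed after a start may lie before the start used. For the same reason, the counts of Mt1 and Mt2 do not show a difference between their promoters. Of the 10 genes, 7 were matched to RefSeq promoters, and Slc11a2, Slc40a1 and Hmox1 were not. Mtf1 itself was at a log2 fold change of 0.01 (limma adjusted p = 0.970).

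Differences were also read within each title number. Mt2 was higher in withdrawn embryos in all 4 numbers, by 0.13, 0.61, 0.52 and 0.77 for numbers 1 to 4, and Mt1 likewise by 0.16, 0.48, 0.07 and 0.38. Ftl1 was higher by 0.39, 0.23 and 0.73 in numbers 1, 3 and 4 but differed by -0.03 in number 2, which holds 1 embryo per diet. Fth1 was positive in all 4 numbers (0.05 to 0.15) and Ireb2 negative in all 4 (-0.44 to -0.05). Tfrc, Slc11a2, Slc40a1, Aco1 and Hmox1 had both signs. Number 4 gave the largest differences of Ftl1, Mt2 and Ireb2. Without its 4 embryos limma called 0 of the 10 genes and 0.394% of all genes. Mt2 was then at 0.35 (adjusted p = 0.0980), Ftl1 at 0.25 (adjusted p = 0.188), Mt1 at 0.22 (adjusted p = 0.322) and Ireb2 at -0.16 (adjusted p = 0.464).

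**Figure D3:**
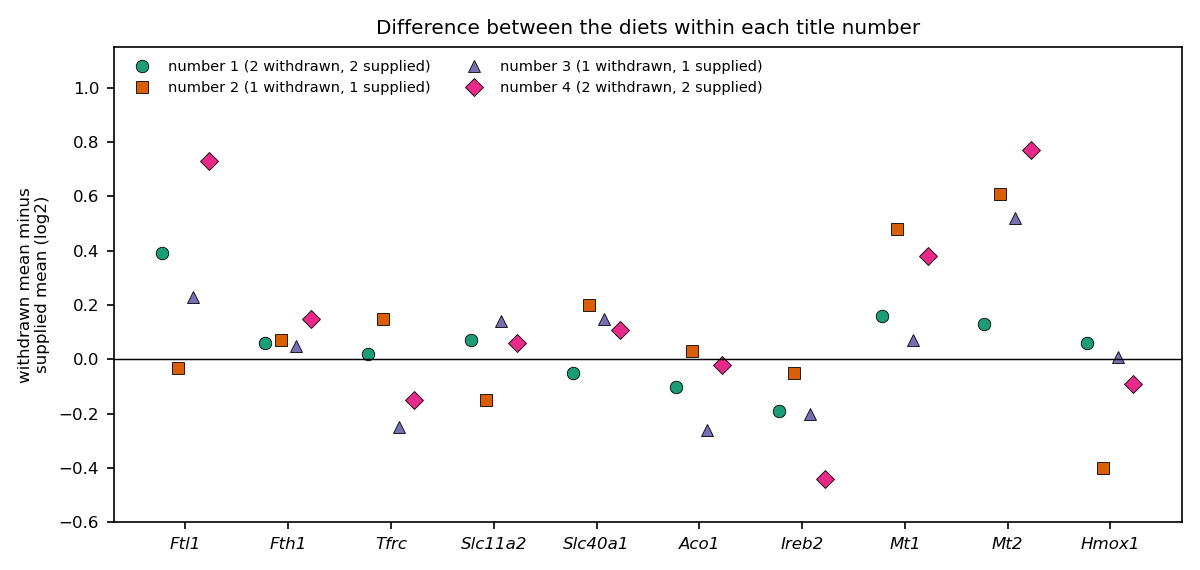
Withdrawn mean minus supplied mean (y axis, log2) of each gene within each title number. Numbers 1 and 4 hold 2 embryos per diet and numbers 2 and 3 hold 1. Mt1, Mt2 and Fth1 are positive and Ireb2 is negative in all 4 numbers.

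Markers of other cells were read beside these changes. Of 10 germ cell markers 9 lay above the median of all values, 8.11, and their summed linear level was 34919 to 39457 in withdrawn and 35637 to 41104 in supplied embryos. Of the 10, limma called 4 higher (Pou5f1 0.45, Tfap2c 0.39, Dppa3 0.23 and Dnd1 0.23) and 3 lower (Mael -0.77, Dazl -0.43 and Ddx4 -0.34). Over all genes tested, 6.22% were called higher and 7.75% lower. All 16 erythroid symbols searched, globins and Alas2 among them, were outside the listed genes, so red cell RNA could not be read here. Of the macrophage markers, 5 of 11 were listed and 4 tested; their summed linear level was 122 to 150 in withdrawn and 132 to 165 in supplied embryos, and 0 of the 4 lay above the median. Supporting cell markers summed to 543 to 621 in withdrawn and 572 to 691 in supplied embryos (13 tested, 12 negative, 1 called lower). Mesenchymal markers summed to 753 to 929 in withdrawn and 957 to 1251 in supplied embryos (6 tested, all 6 negative, and Fbln1, the 1 above the median, called lower). Endothelial markers summed to 2571 to 2964 in withdrawn and 1967 to 2763 in supplied embryos (7 tested, 0 called, with Pecam1, also a germ cell gene, the 1 above the median). With the mean of these 30 somatic markers as a covariate, the fold changes were 0.48 for Mt2, 0.42 for Ftl1 and 0.30 for Mt1. Their SEs were then 0.12, 0.11 and 0.11, and limma called 0 of the 10 genes (adjusted p = 0.0585, 0.0697 and 0.142). That fit called 16 genes higher and 36 lower of all 12432, so a count of 0 among 10 is near its background.

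Other genes of the same pathways were called in both directions. Of 93 such genes tested, limma called 3 higher (3.23%) and 5 lower (5.38%), below the shares of all genes given above. Their median log2 fold change was 0.00, with 48 positive and 45 negative. Among 18 further genes of iron handling, 1 was higher and 2 were lower. Slc39a14, an importer of zinc and iron, had a mean of 9.28 ± 0.11 in withdrawn and 8.96 ± 0.29 in supplied embryos (SD, n = 6 each; log2 fold change 0.33, limma adjusted p = 0.0364). Pcbp2, an RNA-binding protein that also delivers iron to ferritin, changed by -0.20 (limma adjusted p = 0.0341), and all its withdrawn values lay under the supplied ones. Slc22a17, a receptor for the iron carrier lipocalin, changed by -0.17 (limma adjusted p = 0.0246). Ncoa4, which sends ferritin to the lysosome, was at 0.00 (limma adjusted p = 0.972).

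Of 17 genes of haem synthesis and breakdown, 1 was lower. Abcb6, a transporter of porphyrins, had 8.79 ± 0.21 in withdrawn and 9.29 ± 0.21 in supplied embryos (SD, n = 6 each), a log2 fold change of -0.50 (SE 0.10, limma adjusted p = 0.00340). Of 30 genes of iron-sulphur cluster assembly, Fam96b, which helps pass clusters to cytosolic and nuclear proteins, was the 1 called gene, higher by 0.19 (limma adjusted p = 0.0459), and all its withdrawn values exceeded the supplied ones.

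Of 24 genes of zinc and copper handling, 1 was higher and 2 were lower. The zinc exporter Slc30a4 had 8.43 ± 0.18 in withdrawn and 8.90 ± 0.27 in supplied embryos (SD, n = 6 each), a log2 fold change of -0.47 (SE 0.11, limma adjusted p = 0.00814). Slc30a2, which moves zinc into vesicles, was higher by 0.29 (limma adjusted p = 0.0244), and the zinc importer Slc39a6 changed by -0.27 (limma adjusted p = 0.0471). Mtf1 is counted in this list and was not called. Of 4 other mRNAs described with iron-responsive hairpins, limma called 0. The kinase gene Cdc42bpa had the smallest limma adjusted p of them, 0.0643, at a log2 fold change of -0.29. The exact permutation test per gene called 1 of the 93 genes higher and 1 lower. Limma's 3 higher calls became 0 without supplied replicate 5 or 6, 1 without supplied replicate 2 or withdrawn replicate 4, 5 or 6, and 5 without withdrawn replicate 1. Its 5 lower calls became 2 without supplied replicate 2 or 5, 3 without supplied replicate 3 or 6, and 9 without supplied replicate 4. Over the 27 alternatives the call of Abcb6 was lost in 3, of Slc30a4 in 4, of Slc30a2 in 8, of Pcbp2 in 13, of Slc39a14 in 14, of Fam96b in 18 and of Slc39a6 in 19, and that of Slc22a17 in 11 of 26.

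**Figure D4:**
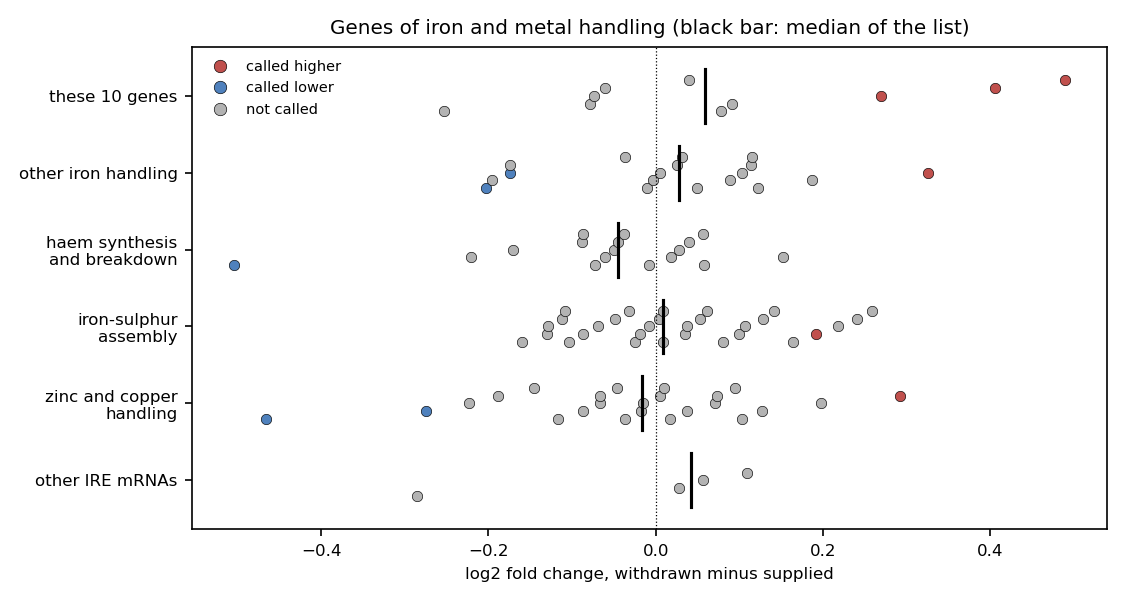
Log2 fold change (withdrawn minus supplied, x axis) of the 10 genes and of 5 lists of related genes, coloured by the limma call, with a black bar for the median of each list. The medians of the 5 lists lie between -0.05 and 0.04, and 3 genes of these lists were called higher and 5 lower.

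The genes most alike to each called gene were found by Pearson correlation over the 12 embryos, among all genes tested except predicted ones. By the values themselves, Mt2 was most like Tcof1, a nucleolar factor (r = 0.953), Prdx6, a peroxiredoxin (r = 0.952), and Set, a histone chaperone (r = 0.949). Ftl1 was most like Zfp64 (0.973), the mitochondrial carrier Slc25a4 (0.972) and Etfb (0.968), and Mt1 most like Dnajb6 (0.870), Pomgnt1 (0.856) and Cbx1 (0.855). All 6 genes nearest to Mt2 and Ftl1 were called higher, and the 3 nearest to Mt1 were not called. The embryos share the diet, so genes that differ between diets rank high by this measure. By deviations from the diet mean, Ftl1 was most like the proteasome activator Psme1 (r = 0.963), Atg16l1 (0.945) and Zfp64 (0.945). Mt2 was most like Ccdc3 (0.905), Nrbf2 (0.900) and Rab35 (0.890), and Mt1 most like Trf, which encodes transferrin (0.909), Ddx31 (0.878) and Zfhx3 (0.867). Trf lay near the lowest values listed, with a mean of 4.53 in supplied embryos, and was at a log2 fold change of 0.02.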

How the data were processed

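The authors deposited normalized log2 expression values, 1 column per embryo. The submitters' processing notes name build mm9 and, without roles, DESeq2 1.10.1, TopHat2 2.0.13, Trim Galore 0.4.0 and FastQC. How genes were counted, annotated and filtered, and which log2 transformation was used, is not given in the sources used here. Low values are all distinct, so no counts were recovered, depth is unknown and fold changes of low genes may be understated.

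Genes with a mean of at least log2 of 10 (3.32) were kept, 12432 of 12516. Withdrawn and supplied embryos were compared with limma 3.58.1 in R 4.3.3 with trended variances, two-sided. All 12 embryos were treated as independent; if embryos of a title number share a mother, p values are too small. The fit was tested on simulated data.

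Named were the 10 genes, up to 4 called genes of each list with the smallest p (the 2 with the smallest p where none was called), the 3 genes most alike to each called gene, and list members used as background. The 10 genes and the lists were chosen with earlier results of these data known. The 3 pairs of genes, and Ncoa4 and Mtf1, were chosen after values were seen. Matching used RefSeq synonyms. Sequences are from RefSeq and GENCODE of GRCm38, matched by symbol, since the values were made on mm9. Alternatives changed the filter, scaling, variance model, weights, test and the embryos used.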

Additional observations from a re-analysis of the deposited data

Results flagged for a closer look

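Among the 20 combinations of gene and diet, 1 embryo stood apart from the other 5 of its diet. Aco1 in withdrawn replicate 4 was at 9.63, against 9.77 to 9.85 in the other withdrawn embryos. Its gap to the nearest of them was 0.635 of the whole range of withdrawn values. That ratio was only just above Dixon's critical value for 6 samples. Chance flags about 1 in 20 groups.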

How the results depend on the processing

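All 10 genes kept the sign of their log2 fold change in each of the 27 alternatives in which they were tested, and so did the 8 called genes of the related lists. The call of Mt2 was lost in 2 alternatives, of Ftl1 in 4 and of Mt1 in 17, and Ireb2 was called lower in 5. The 3 higher calls among the 10 genes were 1 by the exact permutation test per gene, 1 with embryos of a title number and diet averaged, 0 with the somatic covariate and 0 without title number 4, and 2 or 3 when 1 embryo was left out. Over all genes, 773 higher and 964 lower in the reported fit, the counts were 267 and 291 by the exact test, 110 and 188 with averaged embryos, 395 and 491 with a random effect of number and diet, 16 and 36 with the somatic covariate and 9 and 40 without title number 4. Lower calls among the 10, of which the reported fit had 0, were 1 with quantile normalization and from 0 to 1 when 1 embryo was left out. The 3 higher and 5 lower calls among the 93 related genes were 1 and 1 by the exact permutation test per gene, 0 and 2 with a random effect of number and diet, 0 and 1 with averaged embryos, 0 and 0 with the somatic covariate, 0 and 2 without title number 1, 3 and 3 without title number 2, and 0 and 0 without title number 4. They ranged from 0 to 5 and from 2 to 9 when 1 embryo was left out. The cause of these losses was not tested, except that leaving out embryos or averaging them leaves fewer samples. With the title number as a replicate block, 3 of the 10 genes were higher and 1, Ireb2, lower (adjusted p = 0.0179), and 7 of the related genes were higher and 7 lower, where all genes gave 973 and 1089. Same-numbered embryos of the 2 diets did not deviate together in every number. Correlations across genes of their deviations from the diet means ran from -0.216 to 0.311, against -0.364 to 0.302 for embryos of different numbers. The reported fit was planned without pairing by number. With few numbers per diet and overlapping ranges, these correlations cannot decide whether pairing was needed. Whether a number marks a shared batch was not tested. The shifts between genes of a pair kept their sign in 17 further alternatives, chosen after seeing the data. That of Ftl1 minus Fth1 passed the exact permutation test in 3 of them, and those of Mt2 minus Mt1 and Ireb2 minus Aco1 in 1 each, with adjusted p values from 0.0130 to 0.686 for the first. Without title number 4 the shift of Ftl1 minus Fth1 was 0.18 (exact permutation, adjusted p = 0.686); there, without title number 1 and with averaged embryos the smallest exact p was 0.0286 before adjustment. Depth is unknown, so no counting error is given.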
